A study of Mus musculus with 4 samples.

Results

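The mRNA levels of 10 integrin subunit genes of T cells were examined in ILC87-Ik1-ER cells, in which treatment with 4-hydroxytamoxifen (4OHT) activates Ikaros. The genes were *Itga4*, *Itga6*, *Itgae*, *Itgal*, *Itgam*, *Itgav*, *Itgb1*, *Itgb2*, *Itgb3* and *Itgb7*. They were chosen by name, with earlier results of these data known. Each was read by the only probe set that the array annotation gives to it alone. These genes are 10 of 19938 genes measured with a probe set of 1 gene symbol. Of the 4 Affymetrix Mouse Gene ST arrays, 2 were of cells given 100 nM 4OHT for 24 h and 2 of cells given the vehicle, ethanol (EtOH), for 24 h. All 4 arrays share the same line: ILC87 is an Ikaros-null line from the thymic lymphoma of a mouse with floxed Ikaros alleles (Ik f/f) and an Lck-Cre transgene, which acts in T cells. The labels give C57BL/6 as the strain, whereas the methods of the paper that reported the data give a mixed background for Ik f/f Lck-Cre+ mice. The cells carry a retrovirus for full-length Ikaros1 joined to the ligand-binding part of the oestrogen receptor (Ik1-ER) and for GFP, and GFP+ cells had been sorted into a stable line. Cells that lack Ik1-ER were not arrayed with 4OHT here, so that an effect of the ligand alone and one of Ik1-ER cannot be told apart. Whether the 2 arrays of a treatment stand for separate cultures is not stated, and the p-values then measure only their spread, which may be technical.

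Integrins are surface receptors made of 1 α-subunit and 1 β-subunit, and a chain reaches the surface only with a partner. They hold T cells to matrix and to other cells, and signals from inside the cell, such as those of the T-cell receptor, raise their affinity for ligand. In thymocytes, integrins that share the β1 chain bind laminin, fibronectin and VCAM-1, those that share β2 bind the ICAMs, and αEβ7, known as CD103, binds E-cadherin.

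Values are the deposited log2 expression values, which robust multi-array averaging (RMA) made from the probe signals. A log2 fold change is the 4OHT mean minus the EtOH mean, and a gene was called higher or lower at an adjusted p under 0.05 from limma, adjusted over all probe sets. The array medians lay between 7.11 and 7.16, and without detection calls a dimmer gene could not be told from background. *Ikzf1* itself had mean values of 12.84 with 4OHT and 12.77 with EtOH (log2 fold change 0.07, adjusted p = 0.698 from limma). It is unknown here whether these probes also detect Ik1-ER mRNA. Of 12 T-cell markers 10 were measured, with EtOH means of 9.89 to 13.29, and none was below the array medians. *Cd3d* fell (log2 fold change −0.94, adjusted p = 0.0171 from limma) and the other 9 did not pass. At an unadjusted p under 0.05 from limma were 9 of the 10, beside 2326 lower and 1743 higher of all 19938 genes. On both 4OHT arrays 5 of the 10 lay lower and 5 higher (24.5% and 32.1% over all genes). The arrays read many cells of the line together, so that a change in some cells and one in all cells cannot be told apart.

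Of the 10 integrin genes, *Itga6* and *Itgb1* fell and *Itgb2* and *Itgam* rose with 4OHT, while 6 did not pass the test. Over all genes 2.99% were called lower and 1.23% higher. The median log2 fold change of the 10 genes was 0.13, beside 0.03 over all genes, and their values ran from −0.81 to 0.84. In either direction, 412 genes (2.07%) changed by at least as much as *Itgb2*. Both 4OHT arrays lay below both EtOH arrays for 3 of the 10 genes and above them for 6, with overlap in *Itga4* alone. Over all genes these shares were 24.5% below and 32.1% above. The 10 genes and the lists below were chosen with earlier results known, so that their counts beside such shares are no test.

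**Figure D1:**
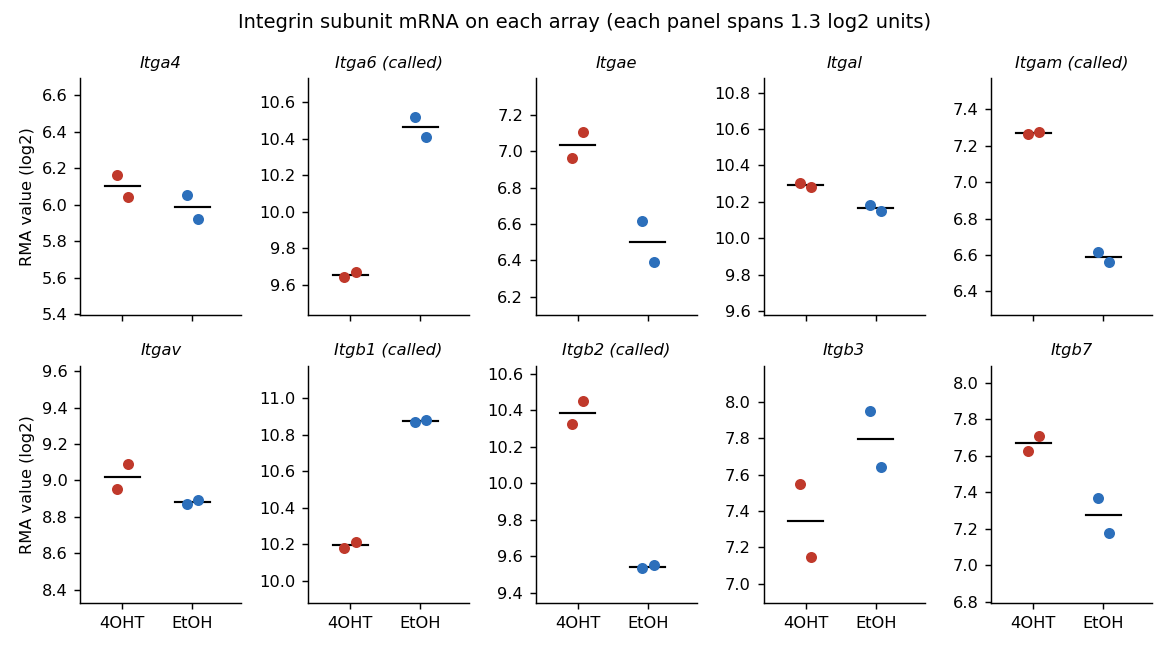
RMA values (log2) of the 10 integrin subunit genes on each array, with 4OHT in red on the left and EtOH in blue on the right of each panel; points are single arrays and black lines the means of 2 arrays. Every panel spans the same range, and the 4 called genes, *Itga6*, *Itgam*, *Itgb1* and *Itgb2*, are those with treatments far apart and arrays of a treatment close together.

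*Itga6* encodes α6, which pairs with β1 or β4 to bind laminin. Its values were 9.64 and 9.67 with 4OHT, against 10.52 and 10.41 with EtOH. Both 4OHT arrays were low and differed by 0.02, and the treatments did not overlap. The level was 1.75-fold lower with 4OHT (log2 fold change −0.81, standard error (SE) 0.078, adjusted p = 0.0200 from limma). *Itgb1* encodes β1, the shared chain of the receptors for laminin, fibronectin and VCAM-1. It had values of 10.18 and 10.21 with 4OHT, against 10.87 and 10.88 with EtOH. The arrays of a treatment differed by at most 0.04, and the level was 1.60-fold lower with 4OHT (log2 fold change −0.68, SE 0.070, adjusted p = 0.0229 from limma). Thus both chains of α6β1 fell, and both were well above the array medians with either treatment.

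*Itgb2* encodes β2, or CD18, the common chain of the leukocyte integrins. Its values were 10.32 and 10.45 with 4OHT, against 9.54 and 9.55 with EtOH. Both 4OHT arrays were high, the treatments did not overlap, and the level was 1.80-fold higher with 4OHT (log2 fold change 0.84, SE 0.081, adjusted p = 0.0200 from limma). *Itgam* encodes αM, or CD11b, the β2 partner best known from myeloid and natural killer cells. It had values of 7.26 and 7.28 with 4OHT, against 6.62 and 6.56 with EtOH. With EtOH it was below the array medians and with 4OHT just above them, and the level was 1.60-fold higher with 4OHT (log2 fold change 0.68, SE 0.072, adjusted p = 0.0239 from limma). How far the EtOH values lie above background is not known.

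These 4 calls were lost in most fits with fewer residual degrees of freedom. None of them passed when the sample number was a block (adjusted p 0.0779 to 0.0922 from limma), and none passed without EtOH replicate 1 (0.144 to 0.159), without EtOH replicate 2 (0.148 to 0.173) or without 4OHT replicate 2 (0.0792 to 0.0940). Without 4OHT replicate 1, *Itgb2* (log2 fold change 0.91) lay right at the threshold and only just passed, and *Itga6*, *Itgb1* and *Itgam* did not pass. The directions did not turn, and the log2 fold changes stayed between −0.86 and −0.76 for *Itga6*, −0.70 and −0.66 for *Itgb1*, 0.78 and 0.91 for *Itgb2* and 0.65 and 0.71 for *Itgam* over these 4 fits. Without EtOH replicate 1 or without EtOH replicate 2, limma called no gene on the arrays at all (2819 and 2586 genes at an unadjusted p under 0.05), so that every call named here, of marker genes too, was lost there.

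For the called genes, promoter sequence was matched for *Itgb1* and *Itgam*, 1 that fell and 1 that rose, and the 120 bases just before each start are shown because AGGAA is a core sequence that Ikaros and Ets factors are known to bind. Capitals mark AGGAA on either strand, which reads TTCCT where it lies on the other strand. The sequences are from RefSeq (GRCm38.p6, plus strand), 5′ to 3′, at chr8:128685534-128685653 for *Itgb1* and chr7:128062520-128062639 for *Itgam*.
Itgb1: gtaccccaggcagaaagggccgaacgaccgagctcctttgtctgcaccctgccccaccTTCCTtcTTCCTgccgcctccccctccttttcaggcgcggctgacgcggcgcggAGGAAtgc
Itgam: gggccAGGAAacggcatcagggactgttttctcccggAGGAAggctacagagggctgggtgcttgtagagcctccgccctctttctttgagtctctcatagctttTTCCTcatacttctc

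Both windows hold 3 matches. Of 32851 promoter windows of 120 bases in the same table, 35.2% hold at least 1 match. The window was cut to take in all matches of both genes, so that their number says nothing of how these promoters compare with others. In *Itgb1* the pair on the other strand begins 62 and 55 bases before the start, and the match on the plus strand 8 bases before it. In *Itgam* the matches begin 115, 83 and 15 bases before the start, the last of them on the other strand. Over the full 250 bases before the start, promoters of 5 of the 10 genes were matched. For *Itgav* and *Itgb7* the start used lies inside the RefSeq gene and not at its outer end. AGGAA was found once in that of *Itgb7*, at 2 places in that of *Itgav* and not in that of *Itga4*, and 60.3% of all promoters hold it. GGGAA, another form of the Ikaros core, had 1 match in each of *Itga4* and *Itgav* and none in *Itgam*, *Itgb1* and *Itgb7* (56.2% of all promoters), and TGTGGT, a Runx motif, had 1 match in *Itga4* and none in the other four promoters (14.0% of all promoters). All motifs were searched on both strands, no match of one motif overlapped a match of another in these 5 promoters, and a match describes letters, not a bound site. The printed promoters belong to a gene that fell and a gene that rose.

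The chains of αEβ7 were higher on both 4OHT arrays without passing the test. *Itgae*, which encodes αE, had values of 6.96 and 7.11 with 4OHT, against 6.61 and 6.39 with EtOH. The treatments did not overlap, but the gene lay near or below the array medians on all 4 arrays and the EtOH arrays differed by 0.22 (log2 fold change 0.53, 95% interval 0.24 to 0.82, adjusted p = 0.0944 from limma). *Itgb7* encodes β7, which also pairs with α4 in the gut-homing receptor. Its values were 7.63 and 7.71 with 4OHT, against 7.37 and 7.18 with EtOH (log2 fold change 0.39, 95% interval 0.14 to 0.65, adjusted p = 0.131 from limma). Both genes passed when only probe sets with 1 gene symbol were fitted (adjusted p = 0.00416 for *Itgae* and 0.0158 for *Itgb7* from limma). In that fit, however, 1739 genes were called lower and 1002 higher, against 597 and 246 over all probe sets.

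*Itgb3* encodes β3, the partner of αV in the vitronectin receptor and of αIIb on platelets. It had values of 7.55 and 7.15 with 4OHT, against 7.95 and 7.64 with EtOH. It was the least reproducible of the 10 genes, with arrays of a treatment 0.40 and 0.30 apart, and although the treatments did not overlap it did not pass (log2 fold change −0.45, 95% interval −0.92 to 0.02, adjusted p = 0.288 from limma). Over 1 value per gene its adjusted p was 0.0442 from limma, in a fit with 9.11 prior degrees of freedom against 2.66 in the main fit. That was the only pass of *Itgb3* in 8 alternatives that kept all 4 arrays.

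*Itgav*, *Itgal* and *Itga4* had the smallest differences. *Itgav*, which encodes αV, had 8.95 and 9.09 with 4OHT, against 8.87 and 8.89 with EtOH (log2 fold change 0.14, 95% interval −0.08 to 0.36, adjusted p = 0.439 from limma). *Itgal* encodes αL, or CD11a, the partner of β2 in LFA-1, the main integrin of T-cell contacts. Its values were 10.30 and 10.28 with 4OHT, against 10.18 and 10.15 with EtOH. The arrays did not overlap, but the gap between treatments was small (log2 fold change 0.12, 95% interval −0.06 to 0.31, adjusted p = 0.426 from limma). *Itga4*, which encodes α4 of VLA-4, was dim at 6.16 and 6.04 with 4OHT, against 6.05 and 5.92 with EtOH, and the treatments overlapped (log2 fold change 0.11, 95% interval −0.13 to 0.35, adjusted p = 0.565 from limma).

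Read by receptor, called β chains had both called and uncalled partners. Of 8 heterodimers that the 10 genes can form, both chains were called in α6β1, where both fell, and in αMβ2, where both rose. In LFA-1 (αLβ2), α4β1 and αVβ1 the β chain was called and the α chain was not. In α4β7, αEβ7 and αVβ3 neither chain was called. The chains were measured as mRNA by different probe sets, so that their levels cannot be set against each other and the amount of any receptor at the surface is not given. The difference between the changes of 2 chains was not tested.

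**Figure D2:**
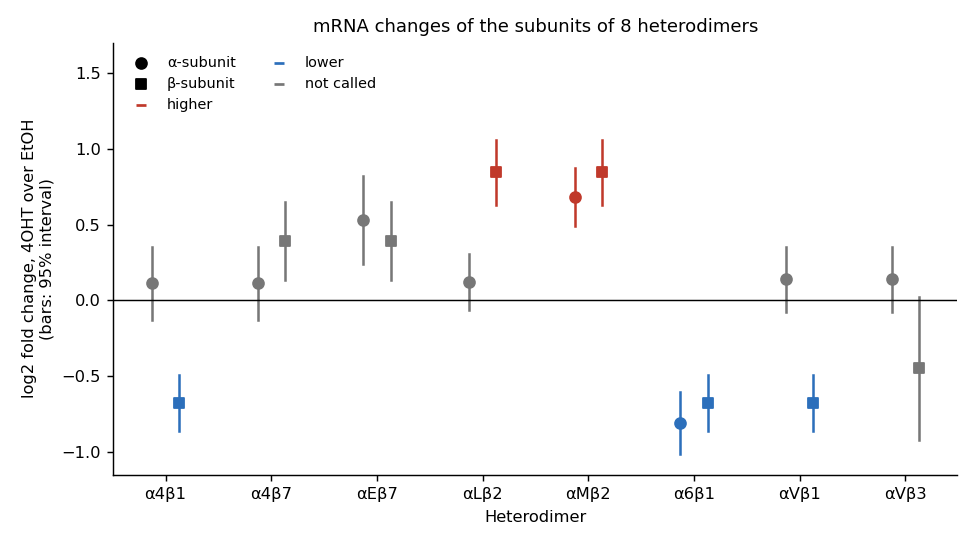
Log2 fold changes (4OHT over EtOH) of the α-subunit (circle) and β-subunit (square) genes of 8 heterodimers; bars are unadjusted 95% intervals from limma, red is called higher, blue called lower and grey not called. Both symbols are coloured in αMβ2 (0.68 and 0.84) and in α6β1 (−0.81 and −0.68), while in αLβ2, α4β1 and αVβ1 the β-subunit alone is coloured.

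The other 17 integrin subunit genes were all measured and none was called by limma. At an unadjusted p under 0.05 were 2 of the 17, beside 2326 lower and 1743 higher of all 19938 genes. Their median log2 fold change was 0.06, and 11 of 17 were below the median EtOH value. Among these 17 are the remaining partners of the called chains. Of 9 further α chains that pair with β1, 2 were lower on both 4OHT arrays, 5 were higher on both and 2 overlapped. Over all genes 24.5% were lower and 32.1% higher on both 4OHT arrays. The ends of the range of these 9 chains were *Itga3* (log2 fold change 0.24, adjusted p = 0.277 from limma) and *Itga9*. The values of *Itga9* were 10.13 and 9.99 with 4OHT, against 10.49 and 10.61 with EtOH (log2 fold change −0.49, adjusted p = 0.0746 from limma). *Itgb4*, the other partner of α6, had 7.59 and 7.66 with 4OHT, against 7.94 and 8.06 with EtOH (log2 fold change −0.37, adjusted p = 0.109 from limma). *Itga9* and *Itgb4* were lower on both 4OHT arrays, and both passed in the fit over probe sets with 1 gene symbol (adjusted p = 0.00354 and 0.0140 from limma). *Itgax* and *Itgad*, the β2 partners that lie beside *Itgam* on chromosome 7 in RefSeq, had log2 fold changes of −0.05 and 0.15 (adjusted p = 0.753 and 0.600 from limma). The difference between these genes was not tested. Another 3 probe sets list *Itgam* together with *Rpl35* and were not used.

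**Figure D3:**
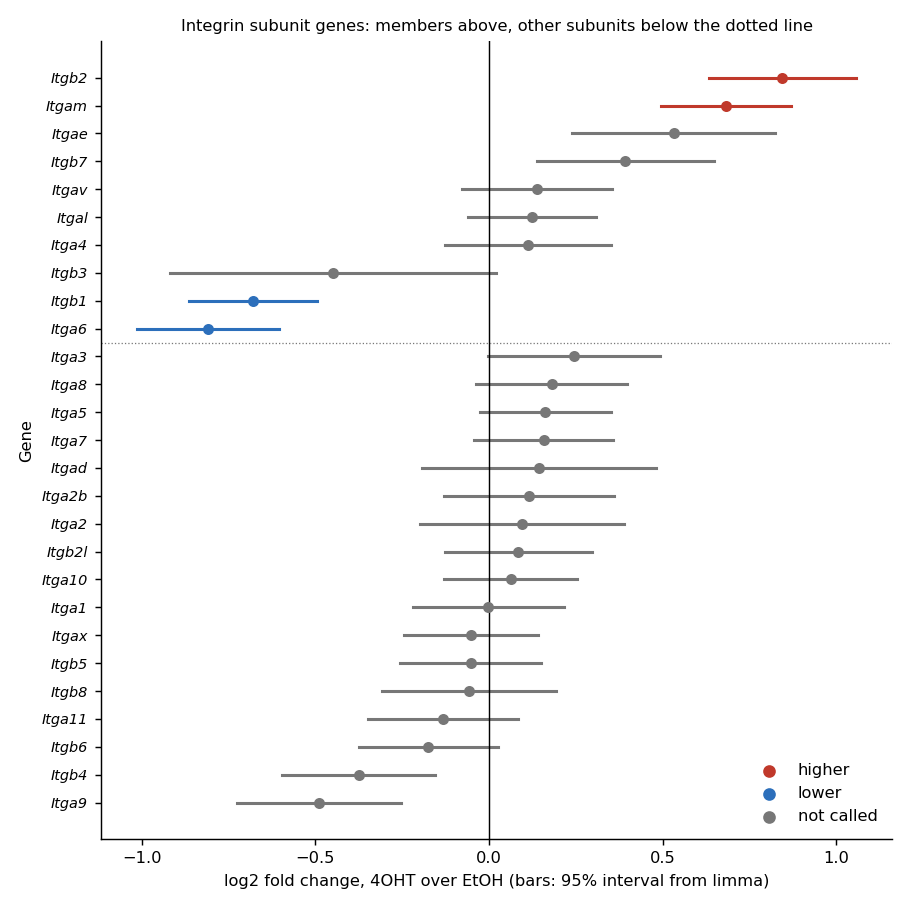
Change with 4OHT, as log2 of 4OHT over EtOH, of all 27 integrin subunit genes, with the 10 T-cell genes above the dotted line and the 17 others below it; points are limma estimates, bars their unadjusted 95% intervals, red called higher, blue called lower and grey not called. The intervals of *Itgb2* and *Itgam* lie above 0.49, those of *Itgb1* and *Itga6* below −0.49, and no gene under the line is called.

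Of 27 measured genes of integrin ligands, 4 fell with 4OHT, none rose and 23 did not pass (median log2 fold change 0.08). The shares called over all genes were 2.99% lower and 1.23% higher. The number that fell was 3 without 4OHT replicate 1, 2 without 4OHT replicate 2, 0 without EtOH replicate 1 or without EtOH replicate 2, and 1 (*Cdh1*) with the sample number as a block. *Cdh1*, which encodes E-cadherin, the ligand of αEβ7, had 7.29 and 7.44 with 4OHT, against 9.90 and 10.30 with EtOH (log2 fold change −2.74, SE 0.16, adjusted p = 0.00952 from limma). The laminin genes *Lamb2* and *Lamb1* had log2 fold changes of −1.57 (adjusted p = 0.0104 from limma) and −1.25 (adjusted p = 0.0189). The other 8 of 10 measured laminin genes did not pass, and 6 of these 8 had log2 fold changes above 0. The remaining gene that fell was *Tgfb3*, whose latent protein binds αV integrins (−1.37, adjusted p = 0.0184). Among the ligands of β2 integrins, *Icam2* had 8.84 and 8.89 with 4OHT, against 8.38 and 8.49 with EtOH (log2 fold change 0.43, adjusted p = 0.0770 from limma), and *Icam1* was at 0.15 on the same scale (adjusted p = 0.450). *Vcam1*, the ligand of α4β1, was dim (−0.08, adjusted p = 0.601). In all, 18 of the 27 ligand genes were below the median EtOH value.

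Inside the cell, integrins are linked to actin and to kinases by the proteins of adhesion complexes. Of 27 measured genes of this list 7 fell, 1 rose and 19 did not pass, with a median log2 fold change of −0.06. Over all genes 2.99% were called lower and 1.23% higher. The number that fell was 4 without 4OHT replicate 1, 1 (*Dock1*) without 4OHT replicate 2, 0 without EtOH replicate 1 or without EtOH replicate 2, and 1 (*Dock1*) with the block, and in each of these fits none rose. The largest decrease was that of *Dock1*, an activator of Rac downstream of adhesion, with 7.67 and 7.49 on 4OHT arrays, against 10.13 and 10.18 on EtOH arrays (log2 fold change −2.57, adjusted p = 0.00525 from limma). *Parva*, which encodes α-parvin, and *Rsu1*, which encodes a partner of PINCH, both of the complex around integrin-linked kinase, had log2 fold changes of −1.58 (adjusted p = 0.0147) and −1.16 (adjusted p = 0.0150). *Ilk*, the kinase gene itself, was not called (0.24, adjusted p = 0.295). *Tns3*, which encodes a tensin that binds β tails, and *Vcl*, which encodes vinculin, fell by 1.53 and 0.98 on the log2 scale (adjusted p = 0.0189 and 0.0156 from limma). *Fyn* (−0.60) and *Actn1* (−0.52), which encode a Src-family kinase and α-actinin, also fell, and are named after their values were seen. The gene that rose was *Flna*, which encodes filamin A, an actin cross-linker that competes with talin for β tails. It had 10.99 and 11.06 with 4OHT, against 10.20 and 10.28 with EtOH (log2 fold change 0.79, SE 0.077, adjusted p = 0.0212 from limma).

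Of 26 genes that bring integrins into the active state or restrain them, 2 rose, none fell and 24 did not pass (median log2 fold change 0.09). For this list and those below, the shares called over all genes were 2.99% lower and 1.23% higher. *Skap1*, which encodes an adaptor that links the T-cell receptor to LFA-1, had 10.60 and 10.49 with 4OHT, against 9.68 and 9.73 with EtOH (log2 fold change 0.84, adjusted p = 0.0189 from limma). *Cyth1* encodes cytohesin-1, which binds the tail of β2, and had 10.14 and 10.06 with 4OHT, against 9.41 and 9.37 with EtOH (log2 fold change 0.71, adjusted p = 0.0244 from limma). The treatments did not overlap for either gene, but neither passed with any 1 array left out (adjusted p 0.0620 to 0.154 for *Skap1* and 0.0779 to 0.173 for *Cyth1* from limma) or with the block (0.0828 and 0.0891). *Tln1* and *Fermt3*, which encode talin and kindlin-3, the direct activators at β tails, had log2 fold changes of 0.09 and 0.15 (adjusted p = 0.577 and 0.336). Of 11 membrane proteins that lie beside integrins, such as tetraspanins, *Cd37* rose (log2 fold change 0.75, adjusted p = 0.0379 from limma, but 0.0593 to 0.211 with 1 array left out and 0.0892 with the block) and 10 did not pass, among them *Cd151*, the tetraspanin of laminin receptors (−0.38, adjusted p = 0.158). Of 12 measured regulators of integrin genes, none was called by limma, and their log2 fold changes lay between −0.42 and 0.42. At an unadjusted p under 0.05 were 4 of the 12, beside 2326 lower and 1743 higher of all 19938 genes. On both 4OHT arrays 5 lay lower and 5 higher, and 2 overlapped (24.5% lower and 32.1% higher over all genes). Over probe sets with 1 gene symbol, 3 were called lower and 1 higher. *Spi1*, which encodes PU.1, a known activator of *Itgam* in myeloid cells, was dim, with 5.69 and 5.73 with 4OHT and 5.68 on both EtOH arrays (log2 fold change 0.03, adjusted p = 0.858 from limma), and its sign turned under another quantile normalization. How these regulators relate to the integrin values was not tested.

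**Figure D4:**
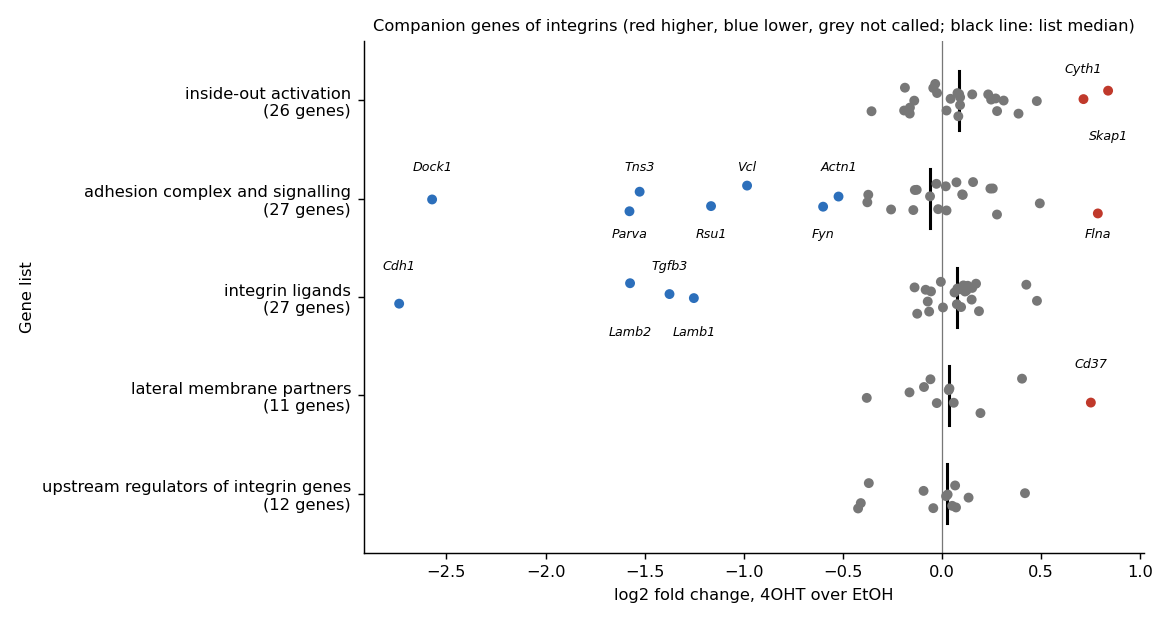
Change with 4OHT, as log2 of 4OHT over EtOH, of each gene of 5 lists around the integrins, with the number of measured genes in brackets; points are genes, red called higher, blue called lower and grey not called, and black lines are list medians. Called decreases reach −2.74 (*Cdh1*) and −2.57 (*Dock1*), while the called increases, *Skap1*, *Flna*, *Cd37* and *Cyth1*, lie between 0.71 and 0.84.

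Genes known as markers of other cells that carry these integrins were read beside the results. All 4 arrays are of 1 sorted stable line and not of a tissue, so that the marker values describe that line. How they relate to the integrin values was not tested. Of 14 myeloid markers 13 were below the median EtOH value. The level summed over the 14, with log2 values turned back to the linear scale, was 1217 to 1260 with 4OHT and 1235 to 1356 with EtOH. *Lyz2* fell (log2 fold change −1.24, adjusted p = 0.0104 from limma) and the other 13 did not pass. Of the 14, 2 lay lower and 5 higher on both 4OHT arrays, and 7 overlapped (24.5% lower and 32.1% higher over all genes). The sum weighs the brighter markers most and does not give the direction of each. None of 8 natural killer cell markers was called by limma. At an unadjusted p under 0.05 were 2 of the 8, beside 2326 lower and 1743 higher of all 19938 genes. *Gzma*, the bright one among them, had 11.83 and 12.25 with 4OHT, against 11.81 and 11.62 with EtOH (log2 fold change 0.32, adjusted p = 0.379 from limma), and with it the 8 summed to 4070 and 5283 with 4OHT and 3930 and 3448 with EtOH. The other 7 were below the median EtOH value and summed to 422 on both 4OHT arrays, against 337 and 294 with EtOH. Of these 7, 3 lay higher and 0 lower on both 4OHT arrays, and 4 overlapped (32.1% higher and 24.5% lower over all genes). *Prf1*, the brightest of the 7, weighs most in their sum. It had 7.71 and 7.74 with 4OHT, against 7.06 and 6.68 with EtOH (log2 fold change 0.86, adjusted p = 0.0605 from limma). How these markers relate to the result for *Itgam* was not tested. Of 8 platelet markers 6 were measured, at a sum of 665 to 671 with 4OHT and 576 to 594 with EtOH. Of 8 endothelial and stromal markers *Pdgfrb*, a growth factor receptor gene, fell, with 9.54 and 9.46 with 4OHT, against 11.35 and 11.50 with EtOH (log2 fold change −1.92, adjusted p = 0.00810 from limma), while the other 7 did not pass. The 8 markers summed to 2573 to 2608 with 4OHT and 4191 to 4432 with EtOH. Without *Pdgfrb* the other 7 summed to 1830 to 1902 with 4OHT and 1544 to 1586 with EtOH. Of these 7, 5 lay higher on both 4OHT arrays (32.1% over all genes) and 2 overlapped.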

How the data were processed

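The authors deposited log2 expression values of 35556 probe sets on 4 arrays; Expression Console 1.1 with RMA is named in the submitters' processing notes. RMA makes the arrays' distributions alike and so hides a shift common to most genes. The sources used here name no genome build for them. Each array's treatment and number came from its label. The comparison used limma 3.58.1 under R 4.3.3 (two-sided eBayes test after lmFit, no filter, no block, 2 residual and 2.66 prior degrees of freedom) with Benjamini-Hochberg adjustment over all probe sets. An exact permutation test of 2 against 2 arrays cannot go below p = 0.333 and so few arrays limit precision.

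Of the probe sets, 21789 have 1 gene symbol, 1621 several and 12146 none, and 21698 symbols were updated through RefSeq. A gene's probe set with the highest mean was used. The members and the 14 lists were chosen with earlier results of these data known. The naming rule took all 10 members, up to 6 called genes of each list with the largest change, and uncalled partners, ligands or neighbours of called members. Outside the rule, *Fyn*, *Actn1*, *Ilk*, *Tln1*, *Fermt3*, *Spi1*, *Prf1*, *Gzma* and *Ikzf1* were named after their values were seen. Alternatives were a replicate block, other scalings, filters, an intensity trend, thresholds and each array left out. The fit was checked on simulated data in which 200 of 35556 probe sets were changed. It called 106, of which 2 were false, so that many of the changed probe sets were not called. Same-numbered samples did not vary together (correlation of deviations −0.134).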

Additional observations from a re-analysis of the deposited data

How the results depend on the processing

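With the replicate number as a block, limma called 25 genes lower and 5 higher, and 0 integrin genes in either direction. At an unadjusted p under 0.05 were 7 of the 10, beside 1986 lower and 1289 higher of all 19938 genes. The log2 fold changes were −0.81 (*Itga6*), −0.68 (*Itgb1*), 0.68 (*Itgam*) and 0.84 (*Itgb2*). The block left 1 adhesion-complex gene lower and 0 higher, 1 ligand gene lower, and 0 genes higher in the lists of activation genes and lateral partners. With the numbers crossed, chosen after the deviations were seen, 389 genes were lower and 146 higher, 2 integrin genes were lower and 2 higher, and 0 lateral partners were higher. Over probe sets with 1 gene symbol, with 8.44 prior degrees of freedom, 1739 genes were lower and 1002 higher, with 4 integrin genes higher, among them *Itgae* (0.53) and *Itgb7* (0.39). There, 2 other integrin subunits, 1 activation gene, 1 lateral partner and 3 upstream regulators were lower, and 5 activation genes, 3 adhesion-complex genes, 2 ligands and 1 upstream regulator were higher. Over 1 value per gene, 4 integrin genes were higher, with *Itgae* and *Itgb7* at the same values, and *Itgb3* passed at −0.45. At an adjusted p under 0.01, 59 genes were lower and 14 higher, and 0 integrin genes in either direction. The cause of these differences was not tested.

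Leaving out each array in turn gave 0 to 178 genes lower and 0 to 63 higher, 0 integrin genes lower and 0 to 1 higher, 0 to 4 adhesion-complex genes lower, 0 to 3 ligands lower, and 0 genes higher among activation, adhesion-complex and lateral partner genes. The integrin log2 fold changes were then −0.86 to −0.76 for *Itga6*, −0.70 to −0.66 for *Itgb1*, 0.65 to 0.71 for *Itgam*, 0.78 to 0.91 for *Itgb2*, 0.42 to 0.64 for *Itgae*, 0.30 to 0.49 for *Itgb7* and −0.65 to −0.25 for *Itgb3*. No integrin gene changed direction under the alternatives run, while *Spi1* did at −0.024 with quantile normalization repeated. These fits have 1 residual degree of freedom, and a treatment's lone array is taken to have the spread of the remaining pair. The 2-array groups allow no test for a deviating array.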
